A study of Mus musculus with 10 samples.

Results

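The motile cilia genes examined here were 34 named genes of ciliated cells, of the dynein arms, radial spokes and central pair of the axoneme, and of the transport that builds it. They were chosen by name, as probes of the array whose gene name or current symbol was on that list. Because the listed name Spag6 covers 2 current mouse genes, Spag6 on chromosome 2 and Spag6l on chromosome 16, the list held 35 genes of 27669 on the array. These were read by 60 of 41174 probes.

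The samples were 10 whole lungs, each on 1 single-colour array, 5 from p53-null mice and 5 from wild-type mice. Both groups are labelled C57BL/6J males of 8 weeks, and all lungs were frozen after 30 min of aerosolised saline, so no infected lung is compared. p53 is the transcription factor encoded by Trp53 that halts or kills damaged cells. The labels do not name the allele that removes it. Wild-type mice gave the baseline.

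Motile cilia are the beating hairs of the ciliated cells that line the conducting airways and move mucus towards the throat. Outer and inner dynein arms slide the microtubule doublets of the axoneme, and the radial spokes and central pair set the beat. Tektins lie inside the doublets, intraflagellar transport carries the parts to the tip, and RFX factors together with Foxj1 switch on the genes. In people, inherited loss of many of these genes causes primary ciliary dyskinesia. The whole lung holds many other cell types, so fewer ciliated cells and less RNA per ciliated cell cannot be told apart here.

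Signals are given as scaled log2 signal, where 0 is the 75th percentile of the array, and differences as the p53-null mean minus the wild-type mean (log2, ± limma SE), over 5 arrays a group unless stated. Levels of different probes are not comparable. A gene was read by its probe of highest mean signal and tested where 5 or more of the 10 arrays read that probe well above background. The adjusted p is Benjamini-Hochberg over all 21106 genes tested, with 0.05 as the threshold.

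A Trp53 probe printed in 10 spots read between -3.15 and -2.66 on the p53-null arrays, against -1.67 to -1.43 on wild-type arrays 1 to 4 and -2.22 on wild-type array 5. Its difference was -1.28 ± 0.16 (limma adjusted p = 0.00589 over all probes). Wild-type array 5 thus lay between the groups, and members called without it are given both ways below. Without it, 31.7% of all genes were called, against 7.48% with it. Skeletal muscle markers were high on p53-null arrays 4 and 5 and on wild-type array 2, and basal and squamous markers on p53-null array 5 and wild-type array 2. Per array, 71.4% to 84.0% of spots exceeded background clearly, and precision is set by having 5 arrays a group.

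The fitted differences of motile cilia genes between p53-null and wild-type lung were mostly small. Of the 35 genes, 34 were tested and 32 were well above background on all 10 arrays. The tektin gene Tekt1 was higher in p53-null lung, and no member was lower, so that 2.94% of the members were called, against 7.48% of all genes tested (4.59% higher and 2.89% lower). At an unadjusted p under 0.05, 5 members were higher and 1 was lower, 6 of 34, against 27.6% of all genes. Under limma with array weights 5 members were higher and 3 lower, or 23.5%, against 30.8% of all genes called in that fit.

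The median difference of the members was 0.11, against 0.050 over all genes tested. The difference was above 0 for 22 members and below 0 for 12, and for 28 of 34 it was smaller than 0.3 in size. The 95% interval lay within a 2-fold change either way for 32 members and within 1.5-fold for 23. The intervals that reached past 2-fold were those of Lrrc6, from -1.10 to -0.094, and Rfx3, from -0.31 to 1.02. Every member not called is therefore limited by its interval, not shown to be equal.

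**Figure D1:**
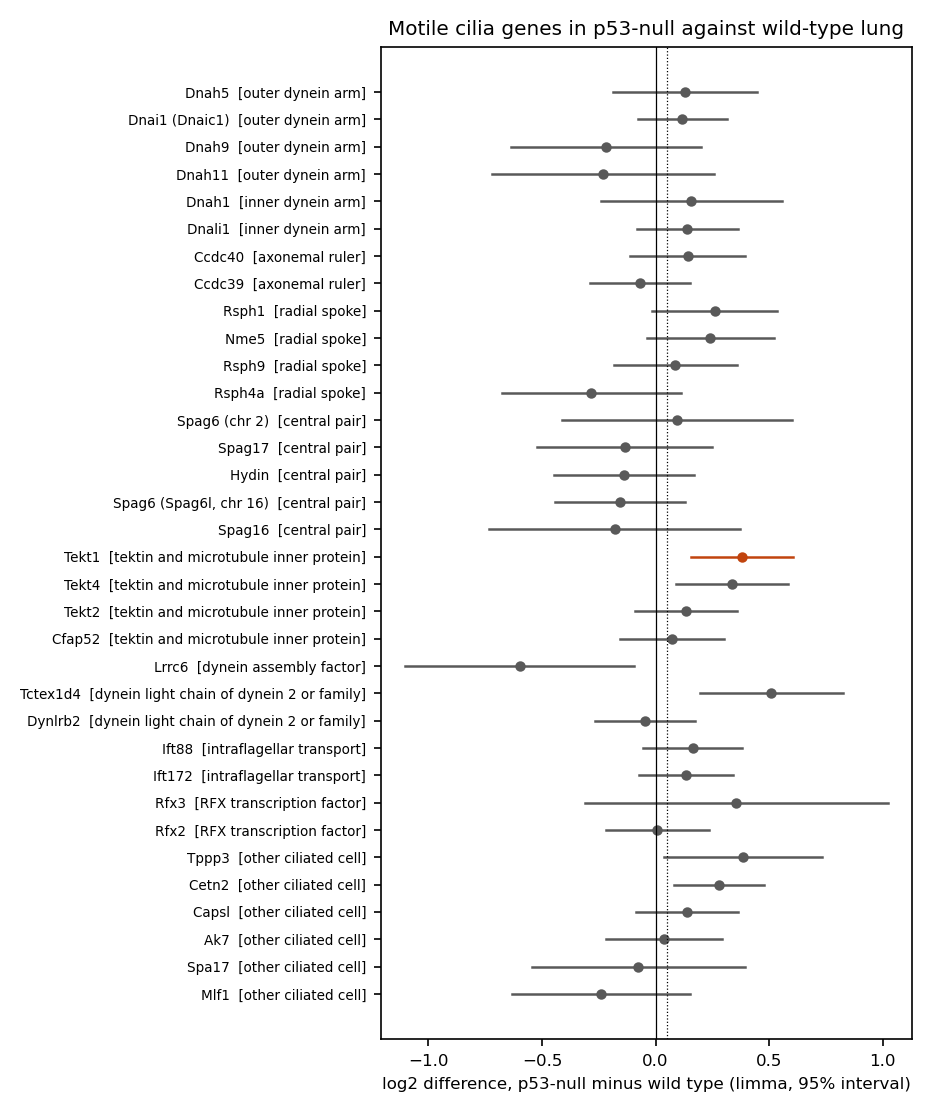
Log2 difference, p53-null minus wild type, of each tested motile cilia gene (y axis, with its role in brackets), as limma estimate (point) and 95% interval (line). The only called member, Tekt1, is in orange, the solid line marks 0 and the dotted line marks the median of all genes tested at 0.050, and most intervals cross 0.

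Tektins are filament proteins that lie along the doublet microtubules. Tekt1 was read by 2 probes, both on chromosome 11 and both well above background on all 10 arrays. Their sequences are shown because they gave differences of unlike size; they are given 5′ to 3′ in lower case as on the array, with no letters marked. On mm7, the build of the array's coordinates, they lie on the minus strand at chr11:72426295-72426354 (downstream) and chr11:72427327-72433431 (upstream). The upstream probe has 60 bases but its placement spans 6105, so it is split over the genome. Whether either lies in a coding exon or a UTR was not analysed here.
Tekt1 downstream probe: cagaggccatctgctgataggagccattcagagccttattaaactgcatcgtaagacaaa
Tekt1 upstream probe: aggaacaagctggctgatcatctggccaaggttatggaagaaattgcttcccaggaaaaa

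The downstream probe, which is the brighter and stood for the gene, read 2.94, 2.79, 2.88, 2.97 and 2.92 on p53-null arrays 1 to 5, against 2.70, 2.47, 2.73, 2.26 and 2.45 on wild-type arrays 1 to 5. All p53-null arrays lay above all wild-type arrays, and wild-type array 4 was lowest. The difference was 0.38 ± 0.10, or 1.30-fold, with a 95% interval from 0.15 to 0.61 (limma adjusted p = 0.0499 over all genes). This call sits at the threshold. It was kept in 6 of 28 alternatives, with a range of 0.29 to 0.60, and among the fits that left out 1 array it was kept without wild-type array 5 (0.36, limma adjusted p = 0.0291) and lost in the other 9.

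The upstream probe read 1.06, 0.98, 1.18, 1.15 and 1.08 on p53-null arrays 1 to 5, against 0.46, 0.25, 0.30, -0.12 and 0.49 on wild-type arrays 1 to 5. The groups were again apart, by a wider gap. The difference was 0.81 ± 0.12, or 1.76-fold (limma adjusted p = 0.0111 over the 31587 probes tested, of which 7.11% were called). It was called in 22 of 27 alternatives, among them all 10 fits that left out 1 array, with limma adjusted p from 0.0012 to 0.0415. The call was lost with slide as a fixed block, within either range of slide numbers, with replicate number as a block, and without the 3 arrays high in muscle markers, where the difference was still 0.79. Slide as a fixed block rested on p53-null array 2 and wild-type array 4 alone, and the higher range held 1 p53-null array. In the other fits that lost the call few genes were called at all. The shares were 0.0542% of all genes in the lower range, 0.123% with the replicate block and 0.0474% without the 3 arrays. Whether the 2 probes differ in their response was not tested.

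Within the lower range of slide numbers, with 4 p53-null and 3 wild-type arrays, the downstream probe differed by 0.39 and the upstream probe by 0.72. Within the higher range, with 1 p53-null and 2 wild-type arrays, they differed by 0.29 and 0.89. The direction was thus the same in both ranges. With the range as a block, the values were 0.36 (limma adjusted p = 0.087) and 0.76 (limma adjusted p = 0.0164). Tekt1 lies 2.76 Mb from the Trp53 probe. Of 419 genes within 10 Mb of that probe 12.2% were called, and the part of this position in the Tekt1 difference was not tested. Dnah9, at 3.76 Mb, and Cfap52, at 1.66 Mb, are members in the same stretch and were not called.

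**Figure D2:**
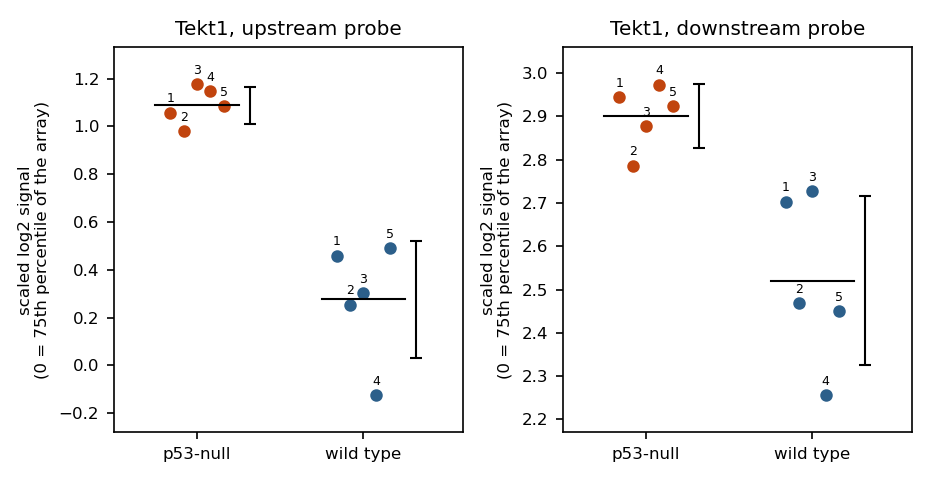
Scaled log2 signal (y axis, 0 = 75th percentile of the array) of the upstream (left panel) and downstream (right panel) Tekt1 probes in 5 p53-null and 5 wild-type lungs. Points are arrays with their replicate numbers, horizontal lines are means and bars are ± 1 SD. In both panels all p53-null arrays sit above all wild-type arrays, by means of 1.09 against 0.28 upstream and 2.90 against 2.52 downstream.

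The other tektins and the doublet protein Cfap52 were all above 0. Tekt4 ranged from 1.43 to 1.49 on p53-null arrays, against 0.84 to 1.39 on wild-type arrays, and differed by 0.34 ± 0.11 (limma adjusted p = 0.0853). Its groups did not overlap, yet it did not pass the threshold. Tekt2 differed by 0.13 ± 0.10. Cfap52, a protein of the microtubule lumen, read 1.34, 1.35, 1.43, 1.34 and 1.34 on p53-null arrays, against 1.61, 1.12, 1.39, 1.11 and 1.21 on wild-type arrays, a difference of 0.073 ± 0.10. The p53-null values lay inside the wild-type range.

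Cetn2 encodes a centrin of the centrioles and basal bodies from which cilia grow, and dividing cells use it as well. Its brightest probe ranged from 2.27 to 2.45 on p53-null arrays, against 1.89 to 2.25 on wild-type arrays, with a difference of 0.28 ± 0.089 (limma adjusted p = 0.0781). Tekt1, Tekt4 and Cetn2 were the 3 members whose groups did not overlap, all higher in p53-null lung. They are 8.82% of the members, close to the 9.32% of all genes with groups apart. The second Cetn2 probe differed by -0.058 ± 0.15, so the 2 probes did not give the same direction. Both lie on the minus strand of chromosome X, at chrX:68300812-68300871 (brighter) and chrX:68301531-68301590 (dimmer) on mm7. They are shown because their estimates are of unlike sign, and whether the 2 probes differ in their response was not tested.
Cetn2 brighter probe: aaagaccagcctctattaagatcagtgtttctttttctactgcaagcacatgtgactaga
Cetn2 dimmer probe: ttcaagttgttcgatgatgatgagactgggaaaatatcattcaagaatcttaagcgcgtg

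The heavy and intermediate chains of the outer dynein arm, which drive the stroke, were split in sign. Dnah5 differed by 0.13 ± 0.14 and Dnai1, listed as Dnaic1 in the reference, by 0.12 ± 0.088. Dnah9 and Dnah11 were below 0, at -0.22 ± 0.19 and -0.23 ± 0.22. A second, dim Dnah9 probe, well above background on 8 arrays, gave 0.43 ± 0.64. The other intermediate chain, Dnai2, was well above background on 3 arrays and was not tested. Neither member of the inner arm, Dnah1 at 0.16 ± 0.18 and Dnali1 at 0.14 ± 0.10, was called.

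Lrrc6 helps assemble dynein arms in the cytoplasm and had the largest difference among the members. It read -3.40, -3.14, -3.13, -3.30 and -3.16 on p53-null arrays 1 to 5, against -2.08, -2.74, -2.27, -2.59 and -3.46 on wild-type arrays 1 to 5. Wild-type arrays 1 to 4 lay above every p53-null array and wild-type array 5 below every one. The difference was -0.60 ± 0.23 (limma adjusted p = 0.124) and -0.81 ± 0.14 without wild-type array 5 (limma adjusted p = 0.00334). In all 28 alternatives it stayed below 0, between -0.82 and -0.46, and it was called in 3, of which 2 left out wild-type array 5 and 1 weighted the arrays.

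Tctex1d4 belongs to the Tctex family of dynein light chains. It read -2.19, -2.11, -1.87, -2.21 and -1.95 on p53-null arrays 1 to 5, against -2.09, -2.82, -2.68, -2.71 and -2.58 on wild-type arrays 1 to 5. Only wild-type array 1 reached into the p53-null range. The difference was 0.51 ± 0.14, or 1.42-fold (limma adjusted p = 0.0549), and 5 of 28 alternatives called it. Dynlrb2, a roadblock light chain, read 3.84, 3.72, 3.81, 3.86 and 3.91 on p53-null arrays, against 4.13, 3.87, 3.99, 3.73 and 3.66 on wild-type arrays. The groups overlapped, at -0.048 ± 0.099, and a second Dynlrb2 probe gave -0.33 ± 0.19.

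Tppp3, a tubulin-binding protein abundant in ciliated cells, read 4.33, 4.25, 4.19, 4.37 and 4.32 on p53-null arrays 1 to 5, against 3.96, 3.82, 3.80, 3.50 and 4.46 on wild-type arrays 1 to 5. Wild-type array 5 was the highest of all, above every p53-null array. The difference was 0.39 ± 0.15 (limma adjusted p = 0.144), and 0.52 ± 0.10 without wild-type array 5 (limma adjusted p = 0.00447). Tppp3 and Lrrc6 were thus called only in fits that left out wild-type array 5 or weighted the arrays.

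The axonemal rulers Ccdc39 and Ccdc40 form a pair that sets the spacing of arms and spokes along the doublet. Ccdc39 read -1.29, -1.20, -1.39, -1.36 and -1.24 on p53-null arrays 1 to 5, against -1.09, -1.41, -1.08 and -1.33 on wild-type arrays 1, 2, 4 and 5. Its spot on wild-type array 3 carried an outlier flag and was left out, so n = 4 there. The groups overlapped, with -0.068 ± 0.097, and Ccdc40 differed by 0.14 ± 0.11.

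Among the radial spoke genes, Rsph1 differed by 0.26 ± 0.12, Nme5 by 0.24 ± 0.13, Rsph9 by 0.088 ± 0.12 and Rsph4a by -0.28 ± 0.18, and none was called. The central pair genes were below 0 for 4 of 5. Spag6l differed by -0.16 ± 0.13, Spag16 by -0.18 ± 0.25, Spag17 by -0.14 ± 0.17 and Hydin by -0.14 ± 0.14, while Spag6 on chromosome 2, a dim probe, differed by 0.095 ± 0.23. No central pair gene passed an unadjusted p of 0.05.

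Ift88 and Ift172 encode subunits of the trains that carry cargo to the ciliary tip, in primary as well as motile cilia. They differed by 0.16 ± 0.098 and 0.13 ± 0.092. Ift172 had 4 probes well above background on all arrays, and none was called over all probes. They differed by 0.13 ± 0.094, 0.38 ± 0.13, 0.30 ± 0.13 and -0.013 ± 0.15. Whether these probes differ in their response was not tested.

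Rfx2 and Rfx3 bind the X-box in promoters of cilia genes. Rfx2 had the smallest difference of all members, with -2.64, -2.48, -2.71, -2.77 and -2.61 on p53-null arrays, against -2.72, -2.77, -2.63, -2.77 and -2.34 on wild-type arrays, or 0.0073 ± 0.10. Rfx3 was dim and well above background on 7 arrays. It read -6.26, -5.72, -5.99, -6.30 and -5.43 on p53-null arrays, against -5.72, -6.69, -6.53, -5.54 and -6.99 on wild-type arrays. The groups overlapped, at 0.36 ± 0.30, and its other probes gave 0.44 and -0.42, so no direction is given for Rfx3.

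Of the remaining members, Ak7, an adenylate kinase of the axoneme, read 2.26, 2.31, 2.42, 2.25 and 2.37 on p53-null arrays, against 2.62, 2.16, 2.43, 2.18 and 2.02 on wild-type arrays. The difference was 0.037 ± 0.12, and the p53-null values lay inside the wild-type range. Further Ak7 probes gave -0.085 and, near background, 0.81. Spa17, a protein of flagella and cilia, differed by -0.077 ± 0.21. The ciliated cell gene Capsl differed by 0.14 ± 0.10, and Mlf1, a gene named for myeloid leukaemia that ciliated cells also express, by -0.24 ± 0.18.

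**Figure D3:**
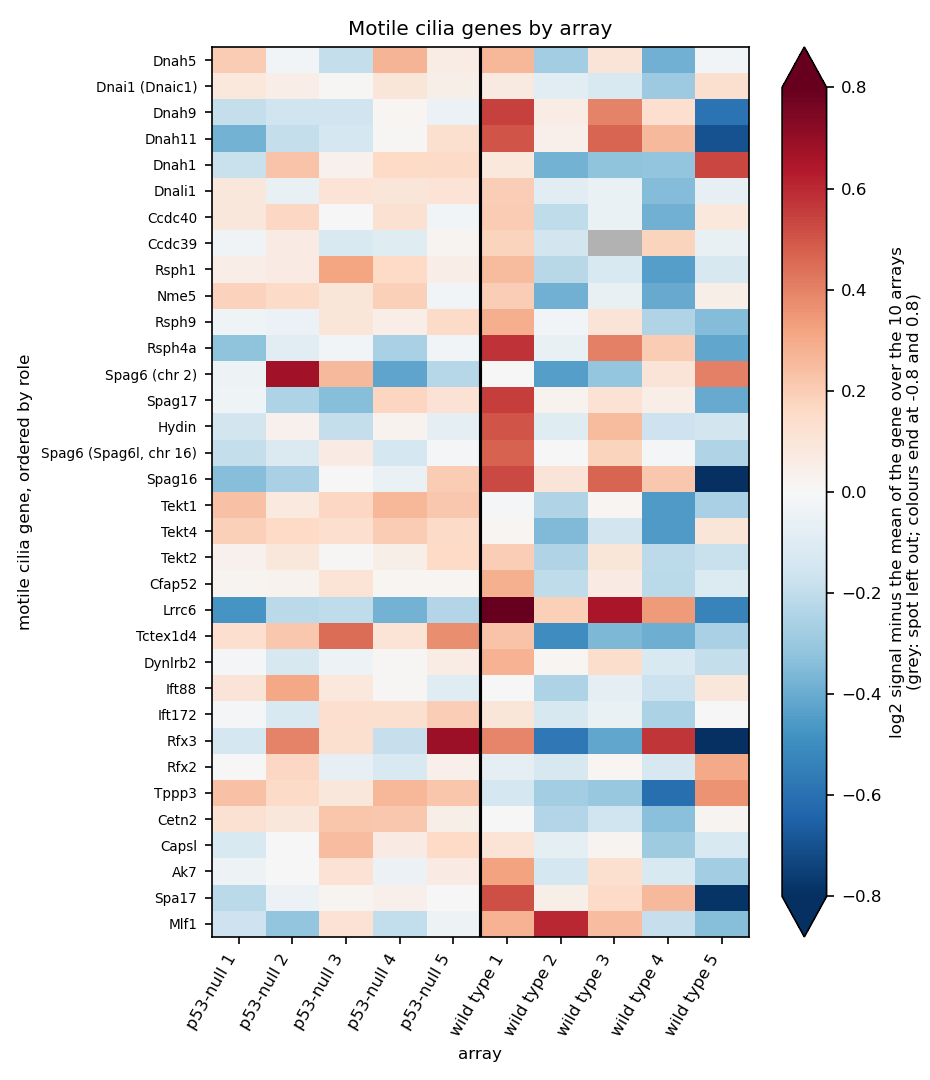
Log2 signal of each tested motile cilia gene (rows, by role) on each array (columns, p53-null left of the black line and wild type right of it), minus the mean of that gene over the 10 arrays. Red is higher and blue lower, with 1 left-out spot in grey. The p53-null columns are pale, with medians of -0.02 to 0.07, while wild-type arrays 1, 2, 4 and 5 stand out, with medians of 0.24, -0.13, -0.20 and -0.14.

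The arrays within a genotype were less alike among wild-type than among p53-null lungs. The p53-null arrays lay on slides 2, 3 and 5, with only p53-null array 2 in the higher range, and were all scanned on day 1. The wild-type arrays lay on slides 1, 4, 5 and 6, with arrays 3 and 4 in the higher range and array 3 scanned on day 2. Slide and scan day thus cannot be told apart from genotype in this spread. Taking each member's deviation from its own mean over the 10 arrays, the median over the 34 members was -0.02, 0.03, 0.07, 0.04 and 0.06 on p53-null arrays 1 to 5, against 0.24, -0.13, 0.02, -0.20 and -0.14 on wild-type arrays 1 to 5. Wild-type array 1 was the highest array for 17 of 34 members. Wild-type array 4 was the lowest for 14 and wild-type array 5 for 13. How often these arrays were highest or lowest over all genes was not counted. Over all probes, the correlation of signal deviation with probe GC content was -0.32 on wild-type array 1. On the other arrays it lay between -0.10 and 0.26.

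The SD was smaller in the p53-null than in the wild-type group for 32 of 34 members, or 94.1%, against 76.4% of all genes. The median SD of the members was 0.10 in p53-null and 0.26 in wild-type lung, against 0.17 and 0.28 over all genes. Ift88 and Spag6 on chromosome 2 were the exceptions. Without wild-type array 5 the count was 30 of 34, or 88.2%, against 54.6% of all genes, and the median SD was 0.10 and 0.22, against 0.17 and 0.18 over all genes. Over other scalings and single arrays left out, the count was between 29 and 33. This comparison was chosen after the values were seen, and members of 1 cell type move together, so the count is not one of independent genes. The groups also differed in slides and scan day, as given above.

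**Figure D4:**
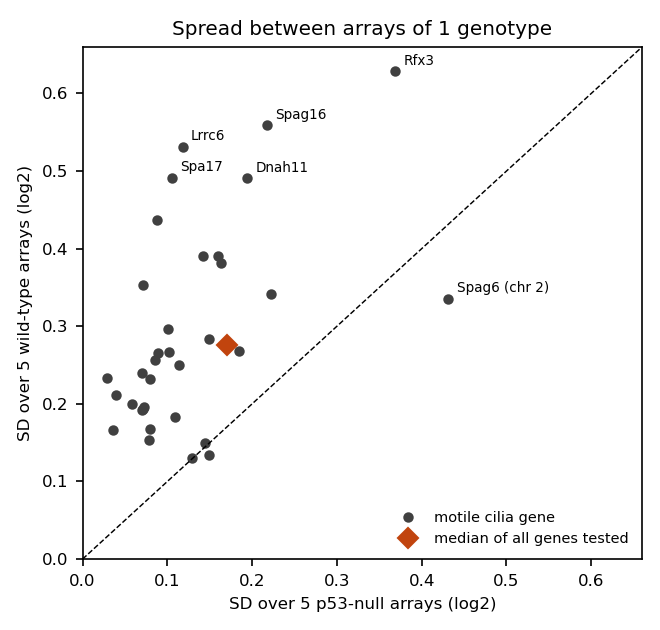
SD over 5 p53-null arrays (x axis, log2) against SD over 5 wild-type arrays (y axis, log2) of each tested motile cilia gene (grey points), with the median of all genes tested as an orange diamond and the dashed line marking equal SD. The members lie above the line, except for Ift88 and Spag6 on chromosome 2, and many lie left of the diamond at 0.17 and 0.28.

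Leaving out wild-type array 5 moved the count of called members to 10, with Tekt1, Tctex1d4, Tppp3, Tekt4 and Cetn2 higher and Lrrc6, Rsph4a, Dnah11, Dnah9 and Spag16 lower. Of those not given above, Dnah9 then differed by -0.39 ± 0.11 (limma adjusted p = 0.0250), Dnah11 by -0.43 ± 0.13 (0.0340), Rsph4a by -0.42 ± 0.13 (0.0416) and Spag16 by -0.42 ± 0.14 (0.0448). Tekt4 differed by 0.40 ± 0.096, Cetn2 by 0.32 ± 0.081 and Tctex1d4 by 0.51 ± 0.15. Spa17, at -0.28 ± 0.10, and Dnah1, at 0.31 ± 0.12, moved as well but were not called (limma adjusted p = 0.0686 and 0.0817). The called members were 5 in each direction of 34, against 31.7% of all genes called in the same fit (17.3% higher and 14.5% lower). On wild-type array 5 Dnah9 read 0.45, against 1.10 to 1.59 on wild-type arrays 1 to 4, and Spag16 read -1.68, against -0.72 to -0.29. The p53-null arrays read 0.85 to 1.06 for Dnah9, between wild-type array 5 and the others, and -1.16 to -0.61 for Spag16, above wild-type array 5 and overlapping the others at wild-type array 2. With all arrays, the dimmer Cetn2 probe differed by -0.058 ± 0.15, a dim Dnah9 probe by 0.43 ± 0.64 and a dimmer Spag16 probe by -0.16 ± 0.15. That Spag16 probe read -3.67 on wild-type array 5, its highest wild-type array. Their differences without wild-type array 5 are not given, so the calls of Cetn2, Dnah9 and Spag16 rest on 1 probe each. With the trend of signal on probe GC content removed as well, Cetn2 was higher and Lrrc6 was lower, and the rest were not called, against 27.1% of all genes. The median GC content was 38.3% for the probes of the 12 members below 0 and 44.2% for those of the 22 above 0, against 43.3% over all genes. The part of probe composition in the lower calls was not otherwise tested.

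**Figure D5:**
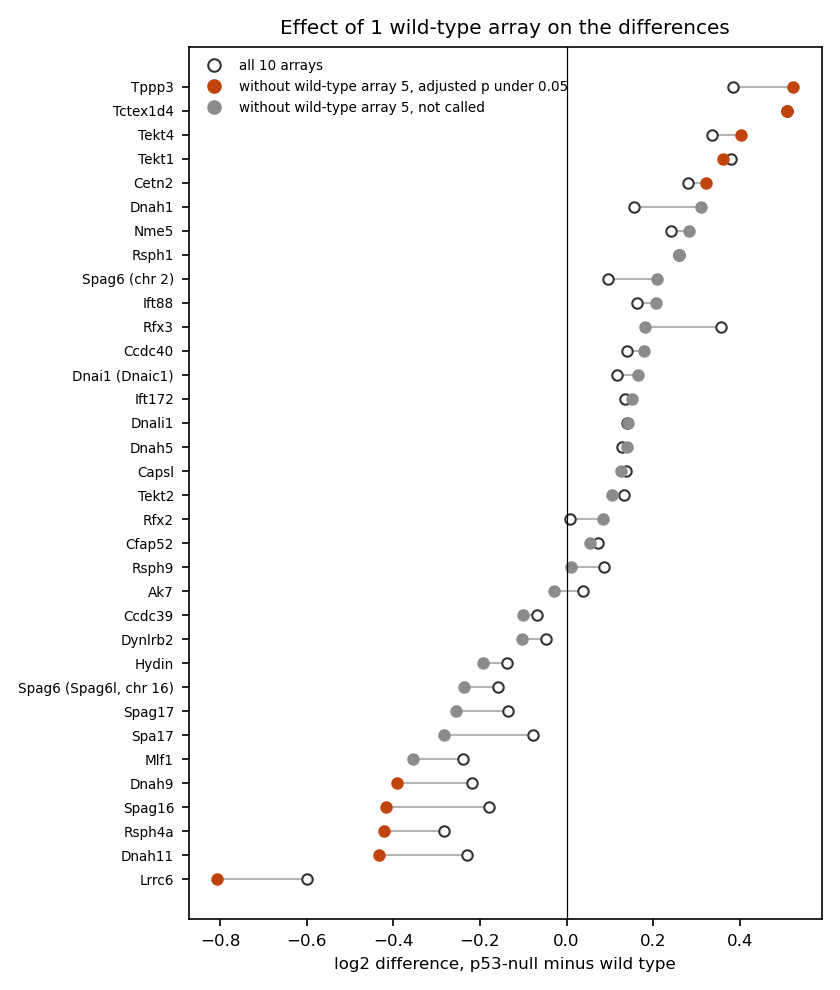
Log2 difference, p53-null minus wild type (x axis), of each tested motile cilia gene (y axis) with all 10 arrays (open circles) and without wild-type array 5 (filled circles, orange where the limma adjusted p was under 0.05). Without that array 10 members were called, 5 at each end, and most members below 0 moved further below 0.

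Further genes of the same structures, outside the list, were examined next. Of 102 further cilia genes 90 were tested, of which 2 were higher, none was lower and the median difference was 0.011. The called share was 2.22%, against 7.48% of all genes tested. At an unadjusted p under 0.05, limma gave 13 higher and 2 lower, 15 of 90, against 27.6% of all genes. Myb, a transcription factor that drives multiciliated cell formation and is also active in blood cell precursors, differed by 0.60 ± 0.13 (limma adjusted p = 0.0287). Myb ranged from -0.21 to 0.02 on p53-null arrays, against -0.999 to -0.44 on wild-type arrays. Cfap100, an axonemal protein, ranged from 0.08 to 0.16 on p53-null arrays, against -0.86 to -0.17 on wild-type arrays, and differed by 0.62 ± 0.14 (limma adjusted p = 0.0327). Myb was called in 11 of 28 alternatives and Cfap100 in 10. With single arrays left out, each was called in 2 of 10 fits, those without wild-type array 1 or wild-type array 5, and elsewhere the limma adjusted p reached 0.0694 for Myb and 0.0791 for Cfap100.

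By role, the called genes were 1 of 10 regulators of ciliogenesis (Myb), 0 of 8 other axonemal dyneins, 0 of 10 dynein assembly and docking genes, 1 of 41 genes of the nexin link, spokes and central apparatus (Cfap100) and 0 of 21 intraflagellar transport genes. At an unadjusted p under 0.05, limma gave 2, 2, 4, 6 and 1 in the same order, against 27.6% of all genes. Of the lists with no call, the genes with the smallest p were Dnah10 (0.43 ± 0.15) and Dnal4 (0.28 ± 0.10), Ccdc151 (0.57 ± 0.15, with wild-type array 3 left out) and Spag1 (-0.43 ± 0.12), and Ift140 (0.22 ± 0.089) and Ift80 (-0.17 ± 0.077). Named here after their values were seen, Foxj1, the main switch of motile ciliogenesis, differed by -0.28 ± 0.23 (limma adjusted p = 0.468) and the p53 relative Trp73, which acts above Foxj1, by 0.31 ± 0.10 (limma adjusted p = 0.0856). Foxj1 ranged from 2.26 to 2.68 on p53-null arrays, against 2.69 to 3.13 on wild-type arrays 1 to 4 and 1.87 on wild-type array 5. Without wild-type array 5 both were called, Foxj1 at -0.50 ± 0.12 (limma adjusted p = 0.0143) and Trp73 at 0.34 ± 0.099 (limma adjusted p = 0.0293), as were 31.7% of all genes. Foxj1 was called in 3 of 28 alternatives, of which 2 left out that array and 1 weighted the arrays.

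As a check of the label, 9 of 12 markers of ciliated cells outside the list were measured well enough to be tested. None was called, 2 passed an unadjusted p of 0.05 in limma, and the median difference was 0.0045. Ccdc113 and Tmem212 had the smallest p, at 0.31 ± 0.12 and 0.25 ± 0.10. Without wild-type array 5, 2 of 9 were called and both were lower, Foxj1 and, named after its values were seen, the tubulin gene Tuba1a (-0.42 ± 0.12, limma adjusted p = 0.0233), against 14.5% of all genes lower. With array weights 2 of 9 were lower as well. The array medians of these markers followed the members, from -0.07 to 0.11 on p53-null arrays, against 0.26 on wild-type array 1 and -0.24 on wild-type array 5.

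Several markers of other cell types were called. Neutrophil markers were higher for 7 of 9 (S100a9 by 2.42 ± 0.28, Mmp9 by 1.35 ± 0.16, Mmp8 by 1.11 ± 0.16, Csf3r by 2.10 ± 0.33) and B cell markers for 7 of 8 (Cd22 by 1.82 ± 0.25, Pax5 by 1.72 ± 0.29, Cd79b by 1.17 ± 0.24), while fibroblast markers were lower for 4 of 8 (Col3a1 at -0.94 ± 0.12, Col1a2 at -0.82 ± 0.11, Npnt at -1.04 ± 0.20, Pdgfra at -0.50 ± 0.13) and endothelial markers for 1 of 8 (Plvap at -0.40 ± 0.087). The array medians of the neutrophil list were 0.40 to 1.39 on p53-null arrays, against -1.24 to -0.55 on wild-type arrays. Club and secretory cell markers, which mark the airway neighbours of ciliated cells, were called for 0 of 12, with 4 at an unadjusted p under 0.05 in limma and a median of -0.14. Gabrp (-0.42 ± 0.15) and Aldh1a1 (-0.24 ± 0.083) had the smallest p there. Alveolar type 2 and type 1 markers were called for 0 of 8 each, with 0 at an unadjusted p under 0.05 in limma. The smallest p were those of Lamp3 (-0.11 ± 0.087) and Abca3 (-0.14 ± 0.12) for type 2, and of Hopx (-0.22 ± 0.10) and Akap5 (-0.19 ± 0.12) for type 1. Basal and squamous markers and skeletal muscle markers were called for 0 of 7 each, again with 0 at an unadjusted p under 0.05 in limma. Sprr1a (-0.58 ± 0.89) and Trp63 (-0.34 ± 0.61), and Myh4 (0.78 ± 0.68) and Ckm (0.85 ± 0.78), are the genes named for them by the same rule. Without wild-type array 5, 2 of 12 club and secretory markers were called, Gabrp among them (-0.54 ± 0.11). In the same fit 1 of 8 alveolar type 1 markers and 3 of 8 endothelial markers were called, against 31.7% of all genes. The part of these marker levels in the Tekt1, Myb and Cfap100 differences was not tested.

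The promoters were then searched for letters that the choice of genes did not use. Of the 35 genes, 30 had a promoter in the RefSeq table of GRCm38.p6, which gives 250 bases before and 50 after each transcription start. Lrrc6, Nme5, Rsph1, Rsph4a and Tppp3 were not searched. The letters GTTGCC, which match an arm of the X-box bound by RFX factors, were searched on both strands. They occurred for 15 of 30 genes, or 50%, for 37 of 83 further cilia genes, or 44.6%, and for 3821 of 27025 genes of the whole table, or 14.1%. Within the 150 bases before the start the counts were 10 genes of 30, or 33.3%, against 7.61% of all genes. The forkhead letters TGTTTAC occurred for 2 genes, Ak7 and Mlf1, or 6.67%, against 4.05% of all genes.

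A match is a description of letters and not a site shown to be bound. The promoters of Tekt1, the called member, and of Tekt2 and Spag16 are printed because they hold a pair of matches, and that of Ift172 because its match lies at the start. Capitals mark GTTGCC or, where it lies on the other strand, GGCAAC. They lie at chr11:72361833-72362132 (minus strand), chr4:126325597-126325896 (minus strand), chr1:69826720-69827019 (plus strand) and chr5:31291065-31291364 (minus strand) on GRCm38.p6.
Tekt1 promoter: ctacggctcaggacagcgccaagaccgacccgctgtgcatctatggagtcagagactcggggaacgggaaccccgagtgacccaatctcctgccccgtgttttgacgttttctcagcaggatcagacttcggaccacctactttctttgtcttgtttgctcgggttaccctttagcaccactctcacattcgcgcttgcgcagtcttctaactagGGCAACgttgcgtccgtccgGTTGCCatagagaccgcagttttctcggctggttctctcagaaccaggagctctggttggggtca
Tekt2 promoter: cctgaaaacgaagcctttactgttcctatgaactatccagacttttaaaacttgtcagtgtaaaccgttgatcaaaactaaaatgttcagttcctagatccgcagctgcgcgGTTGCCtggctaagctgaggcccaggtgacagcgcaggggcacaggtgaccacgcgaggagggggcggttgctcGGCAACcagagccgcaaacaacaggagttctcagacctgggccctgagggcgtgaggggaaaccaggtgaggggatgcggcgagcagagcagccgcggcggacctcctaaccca
Spag16 promoter: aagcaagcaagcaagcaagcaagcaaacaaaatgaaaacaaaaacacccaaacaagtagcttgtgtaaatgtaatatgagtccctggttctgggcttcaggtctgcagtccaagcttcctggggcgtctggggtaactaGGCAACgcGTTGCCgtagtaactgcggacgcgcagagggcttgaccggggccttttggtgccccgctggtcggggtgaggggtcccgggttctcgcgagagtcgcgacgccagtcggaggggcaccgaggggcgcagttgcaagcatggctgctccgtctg
Ift172 promoter: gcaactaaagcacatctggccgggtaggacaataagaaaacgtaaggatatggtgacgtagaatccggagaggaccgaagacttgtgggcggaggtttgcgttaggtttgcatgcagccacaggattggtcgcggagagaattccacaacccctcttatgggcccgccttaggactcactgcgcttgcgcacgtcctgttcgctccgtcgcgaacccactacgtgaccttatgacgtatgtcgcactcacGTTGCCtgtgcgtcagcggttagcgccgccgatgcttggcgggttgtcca

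In Tekt1 the matches begin 35 and 15 bases upstream of the start, on opposite strands, and a second Tekt1 start in the table holds none. In Spag16 they begin 111 and 103 bases upstream, and in the printed Tekt2 promoter 138 and 64 bases upstream. Another Tekt2 start holds the same pair 96 and 22 bases upstream of it, and a further Tekt2 start holds none. Single matches were found for Cetn2, Dnai2, Dynlrb2, Hydin, Ift88, Mlf1, Rfx2, Rfx3, Spag6, Spag6l and Tekt4. Members with a match included Tekt1, Tekt4 and Cetn2 as well as Rfx2 and Dynlrb2, whose differences were 0.0073 and -0.048.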

How the data were processed

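Total RNA (500 ng) of each lung was labelled with Cy3 and hybridised to single-colour Agilent mouse arrays, per the labels' protocols. The submitters' processing notes name Agilent Feature Extraction 9.5. Per the file headers, the deposited intensity is its processed signal, from which background and spatial trend had been removed on every array. The series' value table held the same values (largest difference 0).

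From these, log2 intensity was computed and scaled to the 75th percentile of the array (43379 spots without controls), without outlier-flagged spots and with the spots of a probe averaged. Names came from accessions for 23075 probes, symbols for 6582 and synonyms for 3077 of a GRCm38.p6 table, and 8440 kept the file's name. Groups were compared with limma 3.58.1 in R 4.3.3, checked on simulated data. Probe coordinates are mm7 from the files. P-values measure the spread between mice of 1 series.

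The members, gene lists and tests were chosen with earlier results of these data known. Every member is named. Values on each array are given for Tekt1, the called members, the 5 largest and 5 smallest differences and the RFX factors. From other lists, up to 4 called genes by smallest p were named, or 2 where none was called. A gene chosen by this rule is not reported here. The arrays lay on 6 slides, scanned on 2 days. The only slide that held both genotypes carried p53-null array 2 and wild-type array 4. Slide as a fixed block thus compares those arrays alone. Wild-type array 3 alone was scanned on day 2, so scan day as a block gives the same differences as leaving that array out. Replicate numbers did not pair the arrays (same-number correlations -0.221 to 0.0012). Alternatives covered background, scaling, filter, probe choice, GC trend, slide, replicate number, scan day, array weights, variance model and arrays left out.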

Additional observations from a re-analysis of the deposited data

Results flagged for a closer look

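In groups of 5 arrays, an extreme value stood out if its distance from the next value, over the whole range, exceeded 0.71 (Dixon's test). Of 104 groups examined 5 stood out, and chance gives about 1 in 20. Dnali1 was low on p53-null array 2, at 0.856, with the nearest p53-null array at 1.004. Cfap52 was high on p53-null array 3, at 1.43, with the nearest at 1.35. Both gaps are small on the log2 scale and neither member was called.

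The remaining flags were marker lists of other cell types, given as the median deviation of the list from each gene's mean over the 10 arrays. Basal and squamous epithelium markers were high on p53-null array 5, at 2.82, against -0.64 on the nearest p53-null array, and on wild-type array 2, at 4.35, against -0.56 on the nearest wild-type array. Skeletal muscle markers were high on wild-type array 2, at 4.13, against -1.33 on the nearest wild-type array. On the same 2 arrays the median deviation of the motile cilia genes was 0.06 on p53-null array 5 and -0.13 on wild-type array 2. Without p53-null arrays 4 and 5 and wild-type array 2, which were high in muscle markers, the members' median difference was 0.050, against 0.11 with all arrays. The median over all genes was 0.040 without those arrays and 0.050 with all arrays.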

How the results depend on the processing

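As reported, 1 member, 2 further cilia genes and 1 member probe were called, and these counts depended on the setting. The count of members was 0 with normexp background, median scaling, no filter on dim probes, the GC trend removed, slide as a fixed or random block, slide number range as a block, the lower or higher range only, scan day as a block, and without the 3 arrays high in muscle markers (p53-null arrays 4 and 5, wild-type array 2). It was 2 when all arrays had to be well above background, 3 with trend and robust variance, 8 with array weights, 2 without wild-type array 5 with the GC trend removed (chosen after seeing the data, like all settings for probes), 4 at an adjusted p under 0.1 and 6 at an unadjusted p under 0.05. Beside these, 7.48% of all genes were called as reported, 11.5% when all arrays had to be well above background, 10.7% with trend and robust variance, 30.8% with array weights and 27.1% without wild-type array 5 with the GC trend removed. The count of further cilia genes was 0 with median scaling, no filter, slide as a fixed block, either range only, scan day as a block, and without those 3 arrays, and 1 with the mean of probes or the range as a block. With the mean of probes 5.85% of all genes were called, and the other shares are those given above. With array weights it was 23 (25.6%, against 30.8% of all genes). Without wild-type array 5 with the GC trend removed it was 20 (22.5%, against 27.1%). It was 8 at an adjusted p under 0.1 and 15 at an unadjusted p under 0.05. No share of all genes is given at the former for either list, and 27.6% passed the latter. The count of member probes was 2 with quantile scaling, 3 with all arrays well above background, 0 with slide as a fixed block, either range only and without those 3 arrays, 3 with trend and robust variance, 12 with array weights and 7 without wild-type array 5 with the GC trend removed.

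Leaving out 1 array gave 0 to 10 members, 0 to 23 further cilia genes and 1 to 15 member probes. The highest of each came without wild-type array 5, with 29.4% of members and 25.8% of further cilia genes, against 31.7% of all genes. With any other single array left out, 0.932% to 4.6% of all genes were called. The share over all probes is given only as reported, at 7.11%, so other probe counts can only be set beside the gene shares. The replicate block gave 0 members, 0 further cilia genes and 0 member probes, against 0.123% of all genes. No array correlated best with its own replicate number. The median difference was 0.26 with slide as a fixed block, and between 0.032 and 0.16 in the other alternatives. The median over all genes moved as well. The members' median lay near it with the GC trend removed (0.032 against 0.036), array weights (0.085 against 0.078) and the higher range (0.129 against 0.128). It lay further above it with slide as a fixed block (0.26 against 0.081), quantile scaling (0.10 against 0.0080) and without wild-type array 1 (0.16 against 0.031). In the fit with slide as a fixed block, the difference comes from the slide shared by both genotypes. On its arrays the members' median deviation was 0.03 (p53-null array 2) and -0.20 (wild-type array 4). Wild-type array 4 was also the lowest array for 14 of 34 members, which was not counted over all genes. The cause of the other shifts was not tested. Of 33 uncalled members, 15 changed sign under at least 1 of 28 alternatives and 18 kept it. The count of members with groups apart was 3 (9.32% of all genes), and 1 with normexp (8.22%), 0 with median scaling (7.07%) or the GC trend removed (8.96%), 5 without wild-type array 1 (11.6%) and 7 without wild-type array 5 (29.5% of all genes, against 20.6% of members). Promoter matches within 150 bases before the start were 10 and 2 genes, against 15 and 2 in the whole window. The limits are the number of arrays, the comparisons within slide ranges, which rest on few arrays, and dim probes such as those of Dnai2, Rfx3 and Spag6 on chromosome 2.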
